A study of Homo sapiens with 3 samples.

Results

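The 10 genes described here run the G1 phase of the cell cycle. They encode the cyclins CCND1, CCND2, CCND3 and CCNE1, the kinases CDK2, CDK4 and CDK6, the kinase inhibitors CDKN1B and CDKN2C, and the retinoblastoma protein RB1. Their probes were found through the RefSeq accession that the array design gives each probe, without use of any measured value. This gave 11 probes for the 10 genes, out of 34127 probes and 19740 named genes. The cells were Huh7, an established human hepatoma line, and all groups were this 1 line grown in DMEM with fetal calf serum. A single array each was hybridised with RNA from untreated cells, from cells given chlorogenic acid (CA) at 50 μM and from cells given CA at 100 μM for 24 h. CA is a plant polyphenol that was dissolved in DMSO; the methods describe the untreated control as the DMSO vehicle, whereas its label lists no treatment. With 1 array per group, no difference below was tested, and the spread between cultures is unknown.

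D-type cyclins are made in response to mitogens and activate CDK4 and CDK6, which begin to phosphorylate RB1. Cyclin E with CDK2 adds further phosphates, RB1 then releases the E2F factors, and the genes of DNA replication are switched on. CDKN2C (p18) binds CDK4 and CDK6 directly, while CDKN1B (p27) mainly blocks CDK2 complexes. Many of these steps act through protein binding, breakdown and phosphorylation, none of which an mRNA array reads. The study followed slower growth of cells under CA, and the question put to these arrays is how the mRNAs of this circuit compared with the untreated group.

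A signal below is the scanner's background-corrected intensity in arbitrary units. A level is the log2 of that signal minus the 75th percentile of its own array, which stood at a signal of 1059 for untreated cells, 1207 at 50 μM and 1249 at 100 μM. A ratio is the difference between the levels of the same probe on 2 arrays, and levels of different probes were never compared. The probes for CCND1, CDK2, RB1 and 1 of the 2 probes for CDKN1B were printed 10 times on each array. Their error is the SD of the ratio between spots, which covers printing and scanning only. Whether the spots of 1 probe overlap between arrays has the same limit and does not speak of a difference between cultures. The other 7 probes had 1 spot, and their error is the median spot SD of 10-spot probes in the same one of 4 classes of signal. In a bulk culture, fewer cells carrying an mRNA and less of it per cell cannot be told apart.

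Of the 11 probes, 10 were well above background on all 3 arrays, and these covered 9 of the 10 genes. At CA 50 μM, 6 of the 10 measured probes had a ratio above 0 and 4 below 0, beside 48.2% of all measured probes above 0. Their median was 0.17 beside -0.012 over all measured probes. No member probe differed by at least 2-fold, a size that 1.07% of 22471 measured probes reached. A single member probe, the dimmer one for CDKN1B, was at least 1.5-fold higher, against 5.05% of all measured probes, and 0 were at least 1.5-fold lower, against 2.17%. At CA 100 μM the median was 0.14 beside -0.022 over all measured probes. Again 6 of the 10 ratios were above 0, beside 45.2% of all measured probes. There 0 of 10 member probes reached 2-fold, against 0.894% of 22267 measured probes, 0 were at least 1.5-fold higher, against 2.51%, and 0 were at least 1.5-fold lower, against 1.8%. Between the 2 doses, 0 of 10 differed by 2-fold, against 0.855% of 22453 probes, and 0 lay at least 1.5-fold higher or lower at 100 μM, against 1.62% and 2%. The counts of members past either fold were thus at or near the background of the whole array, and the member ratios were small. Both doses were compared with the same untreated array, so the 2 sets of ratios share its error.

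**Figure D1:**
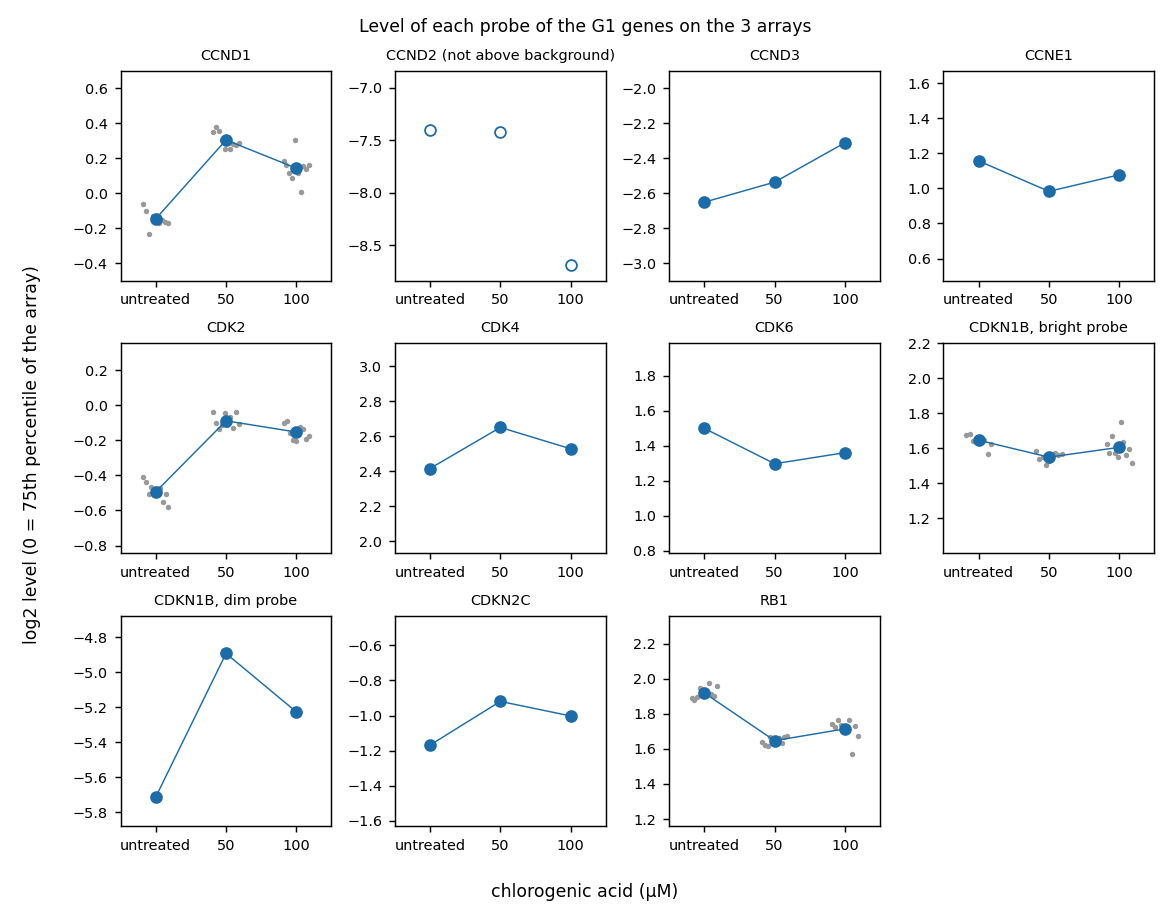
Level (log2 signal minus the 75th percentile of the array) of each of the 11 probes on each array (untreated, 50 and 100 μM CA), with 1 panel per probe and its own vertical axis; grey points are single spots, the marker is the mean of the spots used, lines join the markers and open markers are not well above background. Spots of CCND1 and CDK2 lie higher on both CA arrays than on the untreated array, spots of RB1 lie lower, and the CCND2 markers are open.

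Both measured D-type cyclins, CCND1 and CCND3, had higher levels on the CA arrays than on the untreated one. CCND1 encodes cyclin D1, the mitogen-responsive partner of CDK4 and CDK6 and an oncogene in several cancers. Its signal averaged 957 untreated, 1492 at the lower dose and 1379.6 at the higher one. The untreated spots ran from 901 to 1016 with a median of 954, those at 50 μM from 1438 to 1571 with a median of 1481, and those at 100 μM from 1257 to 1545 with a median of 1383. No untreated spot overlapped a treated one, also on the scale of levels. How many of the other probes printed 10 times separated in this way was not counted. The ratio at 50 μM was 0.45 ± 0.041 (spot SD, 9 spot pairs), a 1.37-fold higher level, and all 9 spot pairs were higher. A ratio at least as high was found for 9.34% of all measured probes and for 47 of 815 probes printed 10 times. At 100 μM the ratio was 0.29 ± 0.079, or 1.22-fold, again with 9 of 9 spot pairs higher, and 9.77% of all measured probes were at least as high. The 100 μM level was below the 50 μM level by a ratio of -0.16 ± 0.089, with 1 of 10 spot pairs higher. Of the spots on the CA 100 μM array, 2 lay in areas where the image was disturbed; without disturbed areas the 100 μM ratio to untreated was 0.28.

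CCND3 encodes cyclin D3, another activator of CDK4 and CDK6. Its 1 spot had signals of 169, 208 and 252 in the order untreated, 50 μM, 100 μM, which is kept below. The levels were -2.65, -2.54 and -2.31, so that the array at 100 μM was the highest. At 50 μM the ratio was 0.11 with a class spot SD of 0.080, which 33.3% of all measured probes reached or passed. It was 0.022 with quantile normalization and 0.025 in the deposited log2 table. At 100 μM the ratio was 0.34, or 1.27-fold, which 7.56% of all measured probes reached or passed. CCND3 was the only measured member probe with its CA 100 μM level outside the range between the other arrays, at 1.17-fold above CA 50 μM. CCND2, for cyclin D2, had signals of 6.25, 7.05 and 3.04 and did not pass as well above background anywhere. The lowest signals of any probe well above background were 12.2, 12.5 and 14.8, so no ratio is given for CCND2.

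The 2 partners of the later G1 complex had ratios of opposite sign. CCNE1 encodes cyclin E1, the activating subunit of CDK2 at the entry into S phase. Its 1 spot gave signals of 2362, 2387 and 2637, which after scaling were levels of 1.16, 0.98 and 1.08. The ratios were -0.17 at 50 μM, or 0.886-fold, and -0.079 at 100 μM, or 0.946-fold, with a class spot SD of 0.051 and 0.052. Bright probes as a class had negative medians in the same comparisons, -0.092 and -0.055, and 32.4% of that class were at least as low as CCNE1 at 50 μM. The unscaled signals were no lower with CA, so the sign for CCNE1 depended on scaling the arrays to each other. Alternative normalizations and filters also scaled the arrays to each other, so they could not test this dependence. Their ratios ran from -0.24 to -0.14 at 50 μM and from -0.18 to -0.055 at 100 μM.

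CDK2 encodes the kinase that cyclin E activates. Its signal averaged 752 untreated, then 1136 and 1124 at the lower and the higher dose. Single spots ran from 708 to 799 on the untreated array, from 1101 to 1178 on the 50 μM array and from 1085 to 1174 on the 100 μM array. Each treated spot was brighter than every untreated spot, also after scaling, and the spots of the 2 CA arrays overlapped. As for CCND1, such separation covers printing and scanning only, and its share among other probes printed 10 times was not counted. The ratio was 0.41 ± 0.051 (spot SD, 10 spot pairs) at 50 μM, or 1.33-fold, with 10 of 10 pairs higher. At 100 μM it was 0.34 ± 0.032, or 1.27-fold, with 9 of 9 pairs higher. Ratios at least as high were found for 11.2% of all measured probes at 50 μM and 7.47% at 100 μM. The difference between the doses was -0.064 ± 0.055, close to the spot SD.

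**Figure D2:**
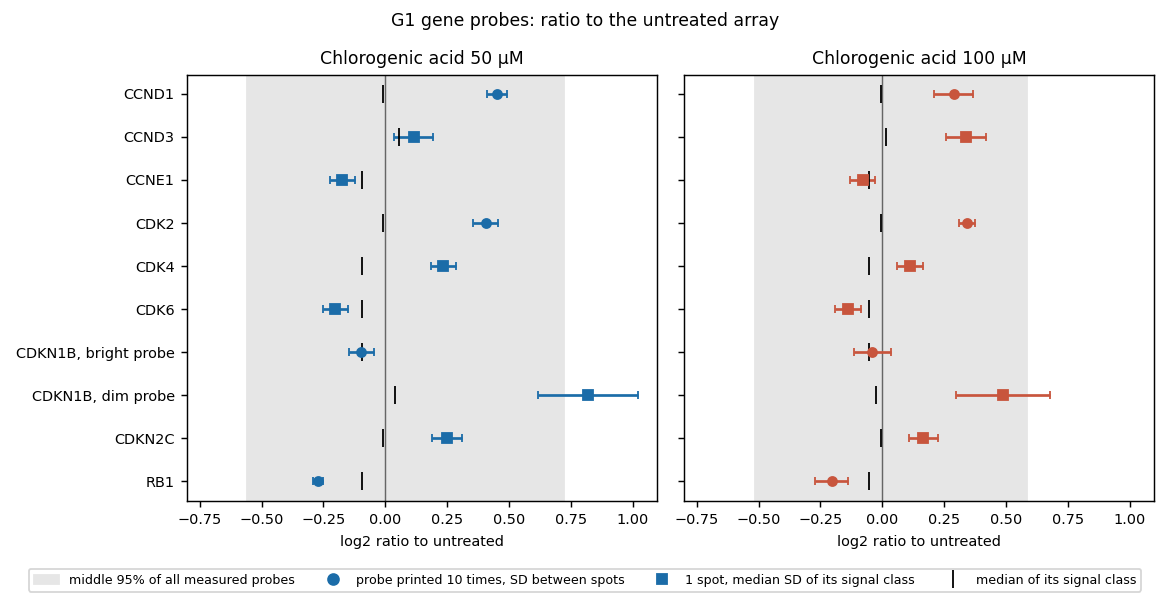
Log2 ratio to the untreated array of the 10 measured member probes at CA 50 μM (left) and CA 100 μM (right); bars are the spot SD, circles are probes printed 10 times, squares are single spots with the median SD of their signal class, black ticks are the median ratio of that class and the grey band holds the middle 95% of all measured probes. All points lie inside the band except the dimmer CDKN1B probe at 50 μM, whose ratio was 0.82.

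The kinases bound by D-type cyclins had ratios of opposite sign. CDK4, whose activity is the first to act on RB1, had 1 spot with signals of 5648, 7579 and 7202. Both CA levels, 2.65 and 2.53, were above the untreated level of 2.42. The ratio at 50 μM was 0.23 with a class spot SD of 0.051, or 1.18-fold, and 21.4% of all measured probes were at least as high. Among bright probes, the share at least as high was 8.58%. At 100 μM the ratio was 0.11, or 1.08-fold, reached or passed by 25.3% of all measured probes and 9.77% of bright ones. Among the alternative normalizations and filters the 50 μM ratio of CDK4 ranged from 0.19 to 0.32.

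CDK6, the second kinase of the D-type cyclins, had 1 spot with signals of 2993, 2967 and 3206. After scaling the levels were 1.5, 1.30 and 1.36, lower on both CA arrays than on the untreated one. The ratios were -0.20 at 50 μM, or 0.869-fold, and -0.14 at 100 μM, or 0.908-fold, with a class spot SD of 0.051 and 0.052. Ratios at least as low were found for 22.1% and 26.3% of all measured probes. The unscaled signal of CDK6 was 2967 at 50 μM against 2993 untreated, so most of its ratio there came from the higher 75th percentile of that array. At 100 μM the unscaled signal, 3206, was above the untreated one, so the sign there depended on scaling the arrays to each other.

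The promoter letters of CDK4 and CDKN2C are shown because their upstream windows held the E-box CACGTG, the palindrome that MYC with MAX and related factors bind. The windows are the 250 bases before the transcription start in RefSeq's table for GRCh38.p14, which lists 12 promoters for 7 of the 10 genes and no entry for CCND1, CCND2 or CDK2. They are written 5′ to 3′ on the strand of the gene, with the E-box in capitals.
CDK4, chr12:57752311-57752560, - strand: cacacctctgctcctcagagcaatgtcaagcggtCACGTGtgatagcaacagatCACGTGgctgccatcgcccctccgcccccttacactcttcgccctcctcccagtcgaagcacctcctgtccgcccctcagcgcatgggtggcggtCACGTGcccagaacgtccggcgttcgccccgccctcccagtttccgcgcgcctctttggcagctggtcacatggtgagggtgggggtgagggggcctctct
CDKN2C, upstream start, chr1:50960495-50960744, + strand: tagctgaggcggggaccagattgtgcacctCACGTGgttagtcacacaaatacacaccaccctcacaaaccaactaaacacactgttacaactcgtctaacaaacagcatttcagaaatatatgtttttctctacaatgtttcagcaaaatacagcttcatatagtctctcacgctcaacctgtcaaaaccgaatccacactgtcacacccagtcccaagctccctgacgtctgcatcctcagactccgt
CDKN2C, downstream start, chr1:50969995-50970244, + strand: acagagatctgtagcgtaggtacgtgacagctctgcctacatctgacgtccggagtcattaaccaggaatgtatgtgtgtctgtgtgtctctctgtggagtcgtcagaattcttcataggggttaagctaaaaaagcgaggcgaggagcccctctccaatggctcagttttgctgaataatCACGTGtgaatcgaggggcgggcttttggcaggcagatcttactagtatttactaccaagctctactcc
The CDK4 window held 3 E-boxes, beginning 216, 196 and 101 bases before the start. Over all 35116 promoters, 6.34% held at least 1 E-box and 28, or 0.0797%, held 3 or more. The 2 CDKN2C windows held 1 each, at 220 and 69 bases before their starts, and the third CDKN2C promoter in the table held none. Both strands were searched, and none of the E-boxes overlapped another motif. The E2F letters TTTGGCGC, TTTCCCGC, TTTCGCGC and TTTGCCGC, found in 2.79% of all promoters, were in 0 of the 12 member windows. The cyclic AMP response element TGACGTCA (1.65% of all promoters) and the AP-1 element TGACTCA (4.2%) were also in 0 of 12. The GC box GGGCGG was in 8 of the 12 windows, of 6 genes, beside 42.6% of all promoters. MYC, whose product binds the E-box, was printed 10 times and had ratios of 0.051 ± 0.051 at 50 μM and 0.064 ± 0.071 at 100 μM, beside medians of -0.092 and -0.055 for its signal class. Among the alternative normalizations and filters the MYC ratio ranged from 0.0017 to 0.13 at 50 μM and from 0.043 to 0.12 at 100 μM. The low ends came with median centring and the high ends with cyclic loess.

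The 2 inhibitor genes and their 3 probes did not give one direction. CDKN2C encodes p18, an INK4 inhibitor of CDK4 and CDK6. Its 1 spot had signals of 471, 638 and 623, and levels of -1.17, -0.92 and -1.0. At the lower dose its ratio was 0.25, or 1.19-fold, with a class spot SD of 0.060, and 20.3% of all measured probes were at least as high. At 100 μM it was 0.17, or 1.12-fold, and 18.9% were at least as high. The probes of CDK4 and of its inhibitor CDKN2C were thus both higher on the CA arrays, by similar and small amounts.

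CDKN1B encodes p27, a Cip/Kip inhibitor whose amount is set largely by SKP2-dependent breakdown of the protein. Its bright probe, printed 10 times, had signals of 3141 to 3402 untreated, 3427 to 3617 at the lower dose and 3574 to 4212 at the higher one. On the CA 100 μM array 2 spots lay in disturbed areas of the image, the brightest at 4212 and the dimmest at 3574. Scaled, the mean levels were 1.65, 1.55 and 1.61, slightly lower with CA. The ratio at 50 μM was -0.097 ± 0.050, with 0 of 8 spot pairs higher, and the median of bright probes was -0.092. At 100 μM it was -0.041 ± 0.076 with 2 of 8 pairs higher, beside a class median of -0.055. The bright CDKN1B probe therefore sat within 1 spot SD of the median of its signal class at both doses. Its unscaled signals were higher with CA than without, so its sign depended on scaling the arrays to each other. Alternative normalizations and filters also scaled the arrays to each other, so they could not test this dependence. Their ratios ran from -0.15 to -0.045 at 50 μM and from -0.061 to -0.0029 at 100 μM.

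The dim CDKN1B probe had 1 spot, with signals of 20.2 untreated and then 40.7 and 33.4 with CA. The lowest signals of any probe well above background were 12.2, 12.5 and 14.8, as given above for CCND2. Its ratio at 50 μM was 0.82 with a class spot SD of 0.20, or 1.77-fold, and 1.51% of all measured probes, or 3.17% of the dimmest class, were at least as high. At 100 μM it was 0.49 with a class spot SD of 0.19, or 1.40-fold, which 10.4% of the dimmest class reached or passed. With a normexp background correction, which adds an offset of 50, its ratios were 0.13 and -0.031. The 2 probes of CDKN1B thus disagreed in sign and size, and the bright probe rests on more spots. As the member probe farthest from the median of all probes, it was also set against 18358 named probes measured on all 3 arrays, by the distance between pairs of log2 ratios. The nearest were DDX51, an RNA helicase, with ratios of 0.80 and 0.49, TCF20, a transcriptional co-regulator, with 0.83 and 0.51, and EPC1, a subunit of a histone acetyltransferase complex, with 0.81 and 0.51. Likeness over 2 ratios from 3 arrays is a description only.

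RB1 encodes the pocket protein that CDK4, CDK6 and CDK2 phosphorylate and that holds E2F factors inactive. Its levels were 1.92 untreated, 1.65 at the lower dose and 1.72 at the higher one. The 10 spots ran from 1.88 to 1.97 untreated, from 1.62 to 1.67 at 50 μM and from 1.57 to 1.77 at 100 μM on the scale of levels. All treated spots were lower than all untreated ones, and the spots of the 2 CA arrays overlapped. As for CCND1, such separation covers printing and scanning only, and its share among other probes printed 10 times was not counted. The ratio at 50 μM was -0.27 ± 0.020 (spot SD, 10 spot pairs), or 0.828-fold, with 0 of 10 pairs higher. Of all measured probes, 14.5% were at least as low, and of the bright class 14.8%. At 100 μM the ratio was -0.20 ± 0.065, or 0.868-fold, with 0 of 10 pairs higher, and 17.1% of all measured probes were at least as low. Before scaling, the spots ran from 3889 to 4161 untreated, from 3701 to 3852 at 50 μM and from 3708 to 4253 at 100 μM. The unscaled spots at 100 μM therefore overlapped the untreated ones, and the lower level there depended on the scaling to the 75th percentile. Alternative normalizations and filters gave ratios from -0.32 to -0.22 at 50 μM and from -0.23 to -0.16 at 100 μM.

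In the order of the 3 levels, 9 of the 10 measured member probes had their 100 μM level between the other 2, a position that 50.5% of all probes measured on the 3 arrays took. The 9 probes had smaller ratios to untreated at the higher dose, and CCND3 was the exception. The doses differed by about 1 spot SD or less for the bright CDKN1B probe, at 0.056 ± 0.064, and for RB1, at 0.068 ± 0.061. CDK6 lay 0.063 above its 50 μM level and CCNE1 0.095 above, both with a class spot SD of 0.049. CDKN2C lay 0.083 below, with a class spot SD of 0.055. CCND1 at -0.16, CDK4 at -0.12 and CCND3 at 0.23 had the larger differences between doses among genes with a single probe.

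The other genes of the G1 to S transition were read from a fixed list of 30 genes with 38 probes, of which 37 were measured. Their median ratio was 0.017 at 50 μM and 0.064 at 100 μM, and 19 and 24 of the 37 were above 0, beside 48.2% and 45.2% of all measured probes. The list had 2 of 37 probes at least 1.5-fold higher at 50 μM and 1 at 100 μM, against 5.05% and 2.51% of all measured probes. In the list 0 were at least 1.5-fold lower, against 2.17% and 1.8%. E2F4, a repressive E2F that binds RB-family proteins, had signals of 125, 270.2 and 204 and ratios of 0.92 and 0.46. CDKN2B, the INK4 inhibitor p15, had signals of 21.0, 41.1 and 73.9 and ratios of 0.78 and 1.58, the second of them the 1 value of the list past 2-fold. Its CA 100 μM spot lay in a disturbed area of the image, and with normexp its ratios were 0.090 and 0.49. CDKN1A, the p53-induced inhibitor p21, had 1 dim probe with signals of 36.2, 59.3 and 54.7 and ratios of 0.52 and 0.36, which were 0.076 and 0.050 with normexp.

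CDC34, the ubiquitin-conjugating enzyme that works with SKP2, had ratios of 0.58 and 0.060. The lowest ratios of the list were those of TFDP2, a dimer partner of E2F factors, at -0.45 and -0.32. MNAT1, which assembles the CDK-activating kinase, followed at 50 μM, with ratios of -0.34 and -0.087. The dimmer probe of SKP1, a subunit of the SCF ubiquitin ligase, had -0.14 and -0.11 and was among the lowest only at 100 μM. The brighter SKP1 probe had -0.086 and 0.091. Probes of 1 gene differed here too. The bright probe of E2F3 had ratios of -0.25 and -0.13, and its dim probe 0.19 and 0.58. A dim probe of RBL1, the RB relative p107, had 0.17 and 0.49, and its brighter probe -0.068 and 0.037.

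Downstream, the 18 E2F target genes had 22 measured probes with a median ratio of -0.029 at 50 μM and 0.083 at 100 μM. At least 1.5-fold higher were 3 of the 22 probes at 50 μM and 2 at 100 μM, against 5.05% and 2.51% of all measured probes. At least 1.5-fold lower were 0, against 2.17% and 1.8%. RRM2, the regulatory subunit of ribonucleotide reductase, had signals of 771, 1451 and 1807 and ratios of 0.72 and 0.99. MYBL2, a transcription factor of proliferating cells, had ratios of 0.83 and 0.40. The dimmer probes of MCM5, part of the replicative helicase, and of UHRF1, which maintains DNA methylation, had 0.72 and 0.30, and 0.58 and 0.59. Their brighter probes had 0.46 and 0.28 for MCM5, and -0.018 and 0.19 for UHRF1. The lowest of the list were thymidine kinase TK1 at -0.17 and -0.075, MCM3 at -0.14 and -0.097, RRM1 at -0.13 and -0.087, and thymidylate synthase TYMS at -0.11 and -0.085. At 50 μM, beside the member median of 0.17, the medians of both lists were near the -0.012 of all measured probes. At 100 μM they were above the -0.022 of all measured probes, and the member median was 0.14. The member medians count both CDKN1B probes, the dim one at 0.82 and 0.49 and the bright one at -0.097 and -0.041.

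**Figure D3:**
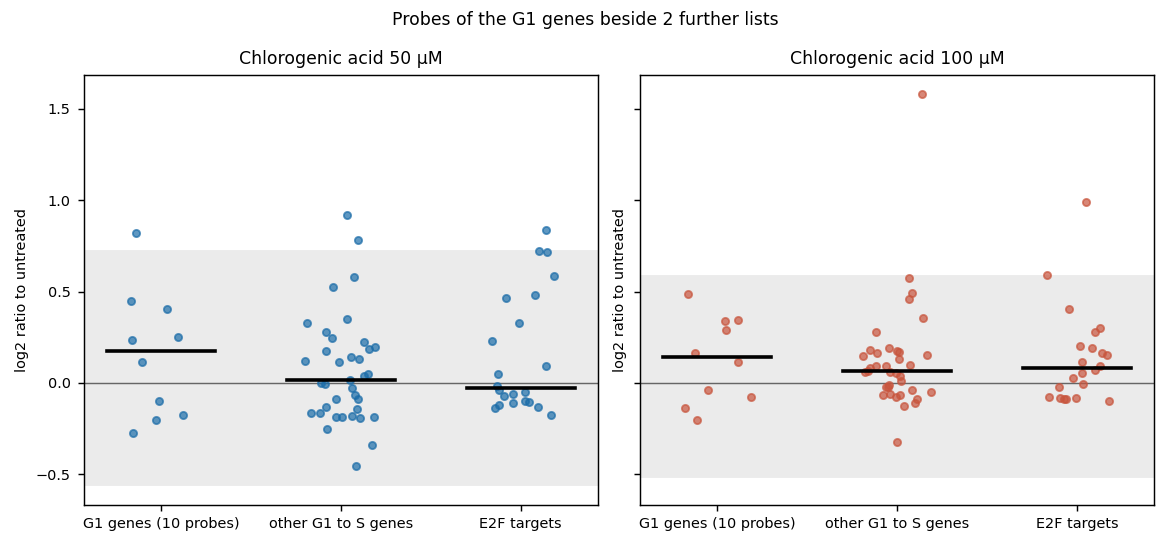
Log2 ratio to the untreated array of every measured probe of the G1 genes (10 probes), of the other G1 to S genes (37 probes) and of the E2F target genes (22 probes) at CA 50 μM and CA 100 μM; each point is a probe, the black line is the median and the grey band holds the middle 95% of all measured probes. The G1 genes had medians of 0.17 and 0.14, the other G1 to S genes 0.017 and 0.064, and the E2F target genes -0.029 and 0.083.

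Markers of the labelled cell type were checked. All 9 hepatocyte and hepatoma genes checked were well above background on at least 1 array, with ALB at a signal of 109428, 112826 and 100920 and AFP at 95490, 89739 and 83766. HNF4A was the exception in strength, well above background only at CA 50 μM. All 3 leukocyte genes (PTPRC, CD3E and CD14) and all 3 endothelial genes (PECAM1, VWF and CDH5) had at least 1 probe well above background on all arrays, at low to moderate signals, and their part in the member ratios was not tested. Of the fibroblast genes, COL1A2 was measured, THY1 passed on no array, and COL1A1 passed only on the CA 100 μM array, where its spot was in a disturbed area. The 2 genes of dividing cells were measured too, with ratios of 0.42 and 0.30 for the brighter MKI67 probe, and 0.023 and 0.13 for TOP2A. The disturbed areas held 60, 38 and 2460 gene spots in the order untreated, 50 μM, 100 μM.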

How the data were processed

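Total RNA of Huh7 cells was hybridised to 3 one-colour Agilent arrays. The deposited intensity values are the processed signals that the authors obtained with Feature Extraction 11.0.1.1, which are background-corrected and not yet scaled between arrays. The deposited log2 table of the authors was used as an alternative. Control spots and spots with an outlier flag were left out, spots of a probe were averaged, and log2 signals were centred on the 75th percentile of each array. A probe counted as measured where at least 50% of its spots were well above background on both arrays. Accessions named 25771 probes (75.5%). With 1 array per group no test was run, and their number limits the precision.

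The members, the 30 other G1 to S genes, the 18 E2F targets and the hepatocyte and hepatoma, leukocyte, fibroblast, endothelial and dividing-cell markers were chosen with earlier results of these data known. Named were all members, CDKN1A, MYC and, in the first 2 of these lists, up to 3 probes highest and 3 lowest at each dose, and the 3 genes nearest in pattern to the farthest member probe. Where a gene named from these lists had another measured probe, its ratios are given too. The promoter motifs were chosen likewise. Disturbed areas were windows of 17 rows by 7 columns with 5 or more spots, making up 25% or more of those below background on the other arrays, that stood well above background and at least 4-fold brighter on 1 array. Alternatives were the median for centring, quantile and cyclic loess normalization and normexp (offset 50) on median signals, and filters on background, flags, saturation and disturbed areas. Steps were tested on simulated data. Python 3.11.15, numpy 2.4.6, pandas 2.3.3, R 4.3.3 and limma 3.58.1 were used.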

Additional observations from a re-analysis of the deposited data

How the results depend on the processing

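Among the alternative values for single member probes, 288 moved by less than the spot SD and 12 by more. The 288 include the looser background filters and the removal of saturated spots, which could not change the ratio of a measured member probe. The dim CDKN1B probe at CA 100 μM with normexp (-0.031) was the only 1 with another sign. The member median of 0.17 at 50 μM was 0.112 with quantile normalization, 0.116 in the deposited log2 table, 0.114 without the background filter and 0.235 with the probes of a gene averaged. The 1 member probe at least 1.5-fold higher at 50 μM became 0 with normexp and with averaged probes. At 100 μM the median of 0.14 was 0.061 with normexp. Between the doses it was -0.064 without the filter and with averaged probes. Without the filter 1 probe, CCND2, counted as at least 1.5-fold lower at 100 μM, against untreated and against 50 μM.

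The alternatives for the other 2 lists were chosen after seeing the data. The other G1 to S genes at least 1.5-fold higher were 1 at 50 μM with normexp, and at 100 μM 0 with normexp and 2 with cyclic loess or no filter. The median of the E2F targets at 50 μM was 0.029 with quantile normalization, 0.048 with cyclic loess and 0.041 in the deposited table. At 100 μM, 1 of them was at least 1.5-fold higher with median centring, quantile, cyclic loess, normexp and the deposited table. TYMS changed sign at both doses and the dimmer SKP1 probe at 100 μM. So did the dim RBL1 probe at 50 μM and the dim E2F3 probe at both. No other probe named from the 2 lists did, but the brighter probes of SKP1, RBL1, MCM5 and UHRF1 were not followed. No paired analysis was possible because each group had 1 array, and none could be left out. Signals near background limit the dim probes of CDKN1B, CDKN2B and CDKN1A.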
